A study of Mus musculus with 18 samples.

Results

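The genes described here write, copy and remove DNA methylation: Dnmt1, Uhrf1, Dnmt3a, Dnmt3b, Dnmt3l, Tet1, Tet2 and Tet3. They were found by mouse Entrez identifier in the deposited tables, where they make up 8 of 36528 genes listed, and 8 of 8 passed the filter on low counts that left 16875 genes for testing. The study measured polyadenylated transcripts of mouse embryonic stem cells in 18 libraries, 3 in each of 6 groups, after the loss or mutation of BAP1. BAP1 is an enzyme that takes ubiquitin off histone H2A, and RNF2 is the ligase of Polycomb repressive complex 1 that puts it on.

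The groups were BAP1 wt cells (wild type), the BAP1 knockout control (the untreated knockout line), the BAP1 knockout (the same line given 4-hydroxytamoxifen), the BAP1 C91A control (the untreated C91A line), the knock-in BAP1 C91A mutant (that line given 4-hydroxytamoxifen) and the RNF2-BAP1 double knockout, also given 4-hydroxytamoxifen. The drug, at 100 nM for 4 days, switched on the Cre recombinase. Cells of every group received emricasan, an inhibitor of caspases, the proteases of apoptosis. In each line, drug and active Cre came with the treated cells only, so that drug, Cre activity and allele cannot be told apart within a line. Neither the driver of the Cre nor the number of clones behind each line is stated in the sources used here, nor is whether the wild type received the drug. The double knockout has no untreated line of its own among these libraries. Nothing in the labels says that the 3 libraries of a group came from separate cultures, so p-values measure the spread between these libraries, which may be technical.

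DNMT1 copies methylation onto the new strand at replication, and UHRF1 brings it to hemimethylated CpG sites. DNMT3A and DNMT3B methylate new sites, and DNMT3L, which has no catalytic activity, binds and stimulates them. TET1, TET2 and TET3 oxidise 5-methylcytosine, the first step of its removal. Mouse embryonic stem cells are known for high Tet1, Tet2 and Dnmt3l transcript levels and low Tet3, and for silencing many germline genes by promoter methylation.

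Start regions of the members differ widely in CpG sites, the dinucleotide these enzymes act on. The RefSeq table of GRCm38.p6 holds windows of 250 bases before and 50 after each listed start, and 8 of 8 members matched, with 15 windows. The windows of the 4 members with 1 listed start are shown 5′ to 3′ on the gene's strand. They were chosen for having 1 listed start and not by their transcript changes. Capitals mark CpG sites.
Tet1, chr10:62887275-62887574, minus strand: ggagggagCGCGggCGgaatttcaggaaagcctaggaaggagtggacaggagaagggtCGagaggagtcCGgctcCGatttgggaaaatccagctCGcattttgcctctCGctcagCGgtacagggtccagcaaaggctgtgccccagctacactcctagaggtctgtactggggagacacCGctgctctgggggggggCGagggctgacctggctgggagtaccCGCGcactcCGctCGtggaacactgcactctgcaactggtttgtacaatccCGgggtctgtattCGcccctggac
Tet2, chr3:133544341-133544640, minus strand: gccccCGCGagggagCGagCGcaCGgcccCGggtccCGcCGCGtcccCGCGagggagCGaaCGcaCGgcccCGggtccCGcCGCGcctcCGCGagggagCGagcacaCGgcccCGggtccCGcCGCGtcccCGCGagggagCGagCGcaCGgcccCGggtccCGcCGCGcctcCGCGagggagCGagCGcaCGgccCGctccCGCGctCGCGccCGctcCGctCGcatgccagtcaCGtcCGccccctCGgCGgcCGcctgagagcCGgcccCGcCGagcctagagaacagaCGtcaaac
Tet3, chr6:83441629-83441928, minus strand: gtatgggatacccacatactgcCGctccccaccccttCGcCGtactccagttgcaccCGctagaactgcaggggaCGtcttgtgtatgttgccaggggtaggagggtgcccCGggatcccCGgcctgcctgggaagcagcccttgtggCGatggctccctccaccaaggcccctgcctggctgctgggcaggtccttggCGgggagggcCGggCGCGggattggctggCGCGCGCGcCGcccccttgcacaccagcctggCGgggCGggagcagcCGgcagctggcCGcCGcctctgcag
Dnmt3b, chr2:153649199-153649498, plus strand: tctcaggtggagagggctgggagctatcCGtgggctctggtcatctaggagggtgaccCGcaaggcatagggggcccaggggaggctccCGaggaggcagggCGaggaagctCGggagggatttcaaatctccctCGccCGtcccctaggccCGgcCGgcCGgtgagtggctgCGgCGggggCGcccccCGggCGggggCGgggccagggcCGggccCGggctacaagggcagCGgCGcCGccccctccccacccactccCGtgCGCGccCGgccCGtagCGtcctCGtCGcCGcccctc
The Tet2 window holds 57 CpG sites, more than 99.8% of the 32851 promoter windows in the table, whose median is 7. The Dnmt3b window holds 30, the Tet3 window 22 and the Tet1 window 17. The windows of Dnmt3l hold 6, 4 and 3 CpG sites, those of Dnmt3a 46, 47 and 18, those of Dnmt1 2, 12 and 33, and those of Uhrf1 12 and 33. Of motifs searched on both strands, the GC box GGGCGG was in 12 of 15 member windows (35.7% of all windows), the CCAAT box in 5 (37.4%), the E-box CACGTG in 2 (7.15%; Dnmt3a and Dnmt3l) and the E2F-type TTCCCGC in 1 (4.6%; Uhrf1). Neither TATAAA (13.6% of all windows) nor the octamer ATGCAAAT (1.74%) was in a member window. Member windows had a median of 68.3% G and C against 52.7% in all windows, and motif shares were not adjusted for this. The Dnmt3a windows with 46 and 47 CpG sites overlap each other and were counted separately. These are matches of letters and say nothing about binding. DNA methylation itself was not analysed here.

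Libraries held 8106613 to 23039407 counts, fewest in the second BAP1 knockout library. Bap1 transcript counts did not show the deletion: they came to 150 ± 2.30 CPM (counts scaled to a common library total with TMM factors; SD, n = 3) in the knockout and 169 ± 1.53 in its untreated line. They are counted over the whole gene, and the sources used here do not name the removed exons. In the C91A line Bap1 rose from 88.8 ± 4.56 CPM untreated to 165 ± 1.66 in the mutant. Wild type held 178 ± 6.63 CPM, so the untreated C91A line, at 0.497 times wild type, was the low group. The part of this low starting level in the C91A changes was not tested. Rnf2 stood at 74.5 ± 3.52 CPM in the double knockout, 123 ± 7.61 in the BAP1 knockout and 115 ± 7.49 in wild type. Rnf2 transcript thus remained in the double knockout, at 0.648 times wild type, and Bap1 stood at 153 ± 11.7 CPM in that group. The stem cell label was met by Pou5f1 at group means of 663 to 1093 CPM. Summed over 10 pluripotency markers, levels were 3958 to 4156 CPM in wild type, 4675 to 4786 in the untreated knockout line, 3519 to 3649 in the BAP1 knockout, 3924 to 4314 in the untreated C91A line, 2887 to 2961 in the C91A mutant and 4525 to 4743 in the double knockout. Of these markers 9 of 10 fell and 1 rose in the knockout, and 10 of 10 fell in the C91A mutant, where 30.3% and 26.4% of all genes fell. Summed over 10 fibroblast markers (feeder cells are fibroblasts), levels were 56.8 to 58.3 CPM in wild type, 35.5 to 36.7 and 61.5 to 68.1 in the knockout line without and with the drug, 41.8 to 42.7 and 93.2 to 96.2 in the C91A line, and 101 to 103 in the double knockout. Of the 9 that could be tested, 5 rose in the knockout, and 7 rose and 1 fell in the mutant, where 31.3% and 28.6% of all genes rose. Lum was at 0 in the double knockout and reached no more than 0.09 CPM in a library of any other group. In the double knockout against the BAP1 knockout 8 pluripotency markers rose and 1 fell, and 6 fibroblast markers rose and 1 fell, where 32.6% of all genes rose and 30.6% fell. The fibroblast list rose both where members fell and where they rose, and the part of either list in the members' changes was not tested. In bulk RNA fewer cells of a type and less RNA per cell cannot be told apart.

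In the cells that had lost BAP1 or its catalytic cysteine, most members were lower and Tet3 was higher than in the untreated lines. In the BAP1 knockout against its untreated line 5 members fell (Dnmt3a, Dnmt3b, Dnmt3l, Tet1 and Tet2), Tet3 rose, and Dnmt1 and Uhrf1 did not pass the test. In that comparison 61.6% of all genes tested passed, 31.3% higher and 30.3% lower, so that passing was common for any gene. The C91A mutant against its untreated line had the same 5 members lower, with Uhrf1 also lower, Tet3 higher and Dnmt1 not passing, beside 55% of all genes, 28.6% higher and 26.4% lower. The members' median log2 fold change was -0.41 in the knockout and -0.34 in the mutant, where the median of all genes was -0.01 in both. A call here is a Benjamini-Hochberg adjusted p under 0.05 from edgeR's quasi-likelihood test over all 16875 genes, and errors of fold changes are standard errors (SE).

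**Figure D1:**
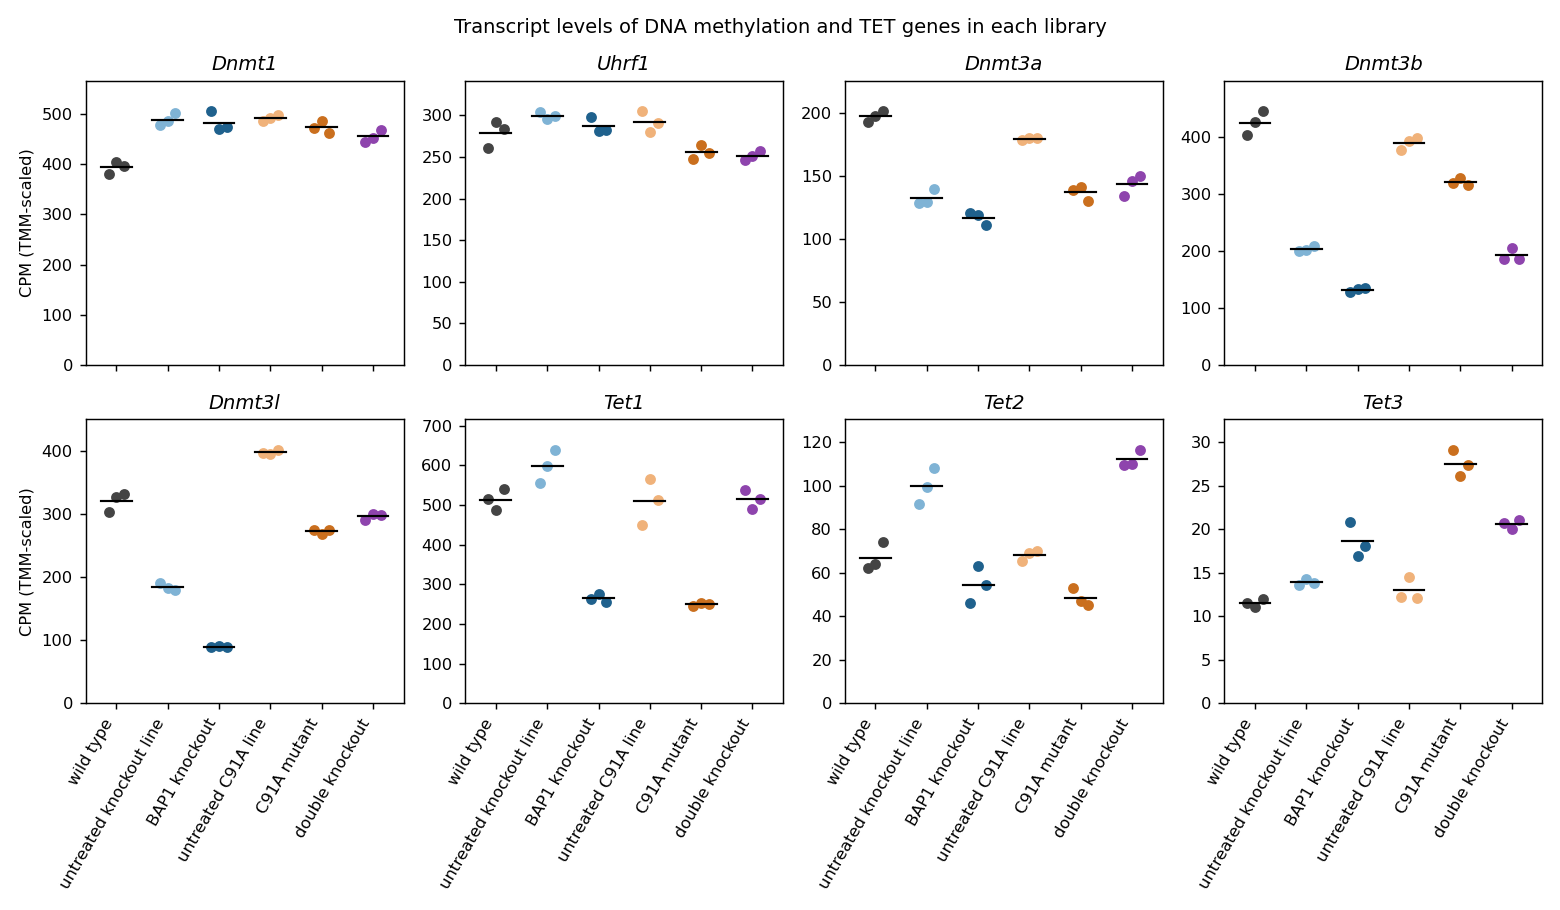
Transcript level in CPM (TMM-scaled, linear axes from 0) of each of the 8 members in each of 18 libraries; points are libraries, black lines group means of 3. Tet1 in the BAP1 knockout and C91A mutant lies at 246 to 277 CPM, below every other library, and Dnmt3l in the BAP1 knockout lies near 90.0 CPM.

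Dnmt1, the maintenance methyltransferase, passed the test in neither line. Wild-type libraries held 380.2, 404 and 397 CPM of Dnmt1, and double knockout libraries 445, 452 and 469. The knockout line held 479, 486 and 502 CPM untreated and 505, 470.1 and 474 as BAP1 knockout. The C91A line held 486, 492 and 498 CPM untreated and 472, 487 and 461 as mutant. Wild type was thus the lowest group, with no overlap with any other, and all neighbours among the other 5 groups overlapped. The log2 fold change was -0.02 ± 0.04 in the knockout (adjusted p = 0.733) and -0.06 ± 0.04 in the mutant (adjusted p = 0.241). Scaling by library totals alone, which shifts the median of all genes by -0.16 in the knockout and -0.11 in the mutant, gave Dnmt1 as lower in both, at -0.17 and -0.16.

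Uhrf1, which recruits DNMT1 and carries the domain that reads hemimethylated DNA, spanned the narrowest range of the 8 members, 1.19-fold between its highest and lowest group means. Its libraries held 261, 292 and 283 CPM in wild type, and 246, 252 and 257 in the double knockout. In the knockout line they held 303, 295 and 299 CPM untreated and 298, 281 and 282 as BAP1 knockout. In the C91A line they held 305, 279.7 and 290.5 CPM untreated and 248, 265 and 255 as mutant. Every mutant library lay below every untreated library of its line, while the knockout overlapped its own line. The log2 fold change of Uhrf1 was -0.19 ± 0.04 in the mutant (adjusted p = 0.000413; -0.29 under library totals alone) and -0.06 ± 0.04 in the knockout (adjusted p = 0.253). The knockout value became a call under library totals alone (-0.21) and with only the 2 groups in the fit (-0.08).

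Dnmt3a, a de novo methyltransferase, was highest in wild type and lowest in the BAP1 knockout. Wild-type libraries held 193, 198 and 201 CPM of Dnmt3a, and double knockout libraries 134, 146 and 150.3. Untreated and knockout libraries of the knockout line held 128, 129 and 139.6 against 120.3, 119 and 111 CPM. Untreated and mutant libraries of the C91A line held 178, 180.3 and 179.9 against 139, 141 and 130.1 CPM. In both lines the treated libraries lay below all untreated ones. In the order of levels the double knockout, the C91A mutant and the untreated knockout line overlapped one another, and all other neighbouring groups were apart. Dnmt3a fell by 0.18 ± 0.05 on the log2 scale in the knockout (adjusted p = 0.00197) and by 0.39 ± 0.05 in the mutant (adjusted p = 4.77e-09). The knockout value was -0.34 under library totals alone.

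Dnmt3b, the other de novo methyltransferase, fell in both lines from unequal starting levels. It stood at 404, 426 and 445 CPM in wild type and at 187, 206 and 186 in the double knockout. In the knockout line it stood at 200.2, 202 and 209 CPM untreated and at 127, 133 and 135 as BAP1 knockout. In the C91A line it stood at 377, 394 and 399 CPM untreated and at 319, 329 and 316 as mutant. All neighbouring groups in the order of levels were apart except the untreated knockout line and the double knockout. The BAP1 knockout reached 0.647 times the level of its line (log2 fold change -0.63 ± 0.05, adjusted p = 5.27e-15), and the mutant 0.824 times (-0.28 ± 0.04, adjusted p = 7.61e-07). A knockout library thus held about 131.8 CPM of Dnmt3b on average where wild type held 425.

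Dnmt3l, the cofactor without catalytic activity, had the widest range of the members, 4.41-fold between group means. Wild-type libraries held 303, 327 and 333 CPM of Dnmt3l, and double knockout libraries 290.4, 300.1 and 299. The knockout line held 190.5, 183 and 180.5 CPM untreated and 90.1, 90.8 and 90.0 as BAP1 knockout. The C91A line held 398, 396 and 402 CPM untreated and 275, 269 and 275 as mutant. No neighbouring groups overlapped, so the 6 groups fell in the order untreated C91A line, wild type, double knockout, C91A mutant, untreated knockout line, BAP1 knockout. Dnmt3l came to 0.489 times its line's level in the knockout (log2 fold change -1.03 ± 0.05, adjusted p = 2.13e-22) and to 0.685 times in the mutant (-0.55 ± 0.04, adjusted p = 6.49e-15). The first start of Dnmt3l lies inside Aire, a thymic transcription factor gene that the GENCODE annotation places on the opposite strand, and without strand in the counting reads in the overlap cannot be told apart. Aire had 32 to 534 counts per library, at most 9.14% of those of Dnmt3l.

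Tet1, the TET dioxygenase with the highest level in these cells, showed the lowest log2 fold change of the 8 members in both lines. Wild-type libraries held 514, 487 and 540.5 CPM of Tet1, and double knockout libraries 537, 491 and 516. The knockout line held 557, 599 and 639 CPM untreated and 264, 277 and 255 as BAP1 knockout. The C91A line held 449.6, 565 and 514 CPM untreated and 246, 252 and 249.8 as mutant. The knockout and mutant libraries formed a low set well apart from the other 12, among which wild type, double knockout and untreated C91A line overlapped. Tet1 came to 0.443 times its line's level in the knockout (log2 fold change -1.18 ± 0.06, adjusted p = 3.06e-21) and to 0.489 times in the mutant (-1.03 ± 0.06, adjusted p = 2.42e-19). Only 9.35% of all genes tested had a lower log2 fold change than Tet1 in the knockout, and 6.95% in the mutant.

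Tet2, the TET enzyme that lacks a CXXC domain, fell in both lines. Its libraries held 62.1, 63.9 and 74.1 CPM in wild type, and 109.7, 110.2 and 116 in the double knockout. Those of the knockout line held 91.5, 99.4 and 108 CPM untreated and 46.2, 63.4 and 54.2 as BAP1 knockout. Those of the C91A line held 65.3, 69.0 and 70.1 CPM untreated and 52.9, 47.2 and 45.3 as mutant. Each treated group lay below its own line, but the knockout overlapped both wild type and the C91A mutant. The log2 fold change of Tet2 was -0.88 ± 0.08 in the knockout (adjusted p = 2.27e-13) and -0.50 ± 0.08 in the mutant (adjusted p = 4.65e-07).

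Tet3, the TET enzyme known for its part in the zygote and in differentiated cells, was the member at the lowest level and the only one of the 8 that rose in both lines. Wild-type libraries held 11.6, 11.1 and 11.95 CPM of Tet3, and double knockout libraries 20.7, 20.1 and 21.1. The knockout line held 13.6, 14.3 and 13.9 CPM untreated and 20.9, 16.9 and 18.1 as BAP1 knockout. The C91A line held 12.3, 14.6 and 12.2 CPM untreated and 29.1, 26.2 and 27.4 as mutant. The mutant libraries stood above all others, the knockout and double knockout libraries overlapped below them, and the remaining 3 groups were lowest. Tet3 came to 1.34 times its line's level in the knockout (log2 fold change 0.43 ± 0.09, adjusted p = 0.000132) and to 2.10 times in the mutant (1.07 ± 0.09, adjusted p = 1.02e-13). Under library totals alone the knockout value was 0.27. Counts of Tet3 were small, 128 to 517 per library.

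Levels of different genes can be compared only per transcript length, as in the authors' size-factor-adjusted RPKM (nRPKM). On that scale Dnmt3l led the DNMT3 family in every group, with 50.3% to 70.6% of the family's summed level. The family sum was 203 ± 9.68 nRPKM (SD, n = 3) in wild type, 112 ± 1.15 in the untreated knockout line, 65.0 ± 0.60 in the BAP1 knockout, 225 ± 3.04 in the untreated C91A line, 163 ± 0.73 in the C91A mutant and 152 ± 4.10 in the double knockout. Tet1 led the TET family in every group, and the family's sum came to 19.4 ± 1.10 nRPKM in the knockout and 18.6 ± 0.22 in the mutant, against 39.3 ± 2.80 and 32.0 ± 3.04 in their lines, 31.9 ± 1.89 in wild type and 37.1 ± 1.17 in the double knockout. As a share of the TET sum, Tet3 made up 2.63% ± 0.06 in wild type, 2.58% ± 0.17 in the untreated knockout line and 2.96% ± 0.19 in the untreated C91A line. That share was 7.04% ± 1.09 in the BAP1 knockout, 10.7% ± 0.45 in the C91A mutant and 4.05% ± 0.07 in the double knockout. Even in the mutant, Tet3 at 1.997 nRPKM stayed far below Tet1 at 11.9. Dnmt1 and Uhrf1 stood at group means of 59.8 to 75.01 and 66.6 to 78.8 nRPKM.

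**Figure D2:**
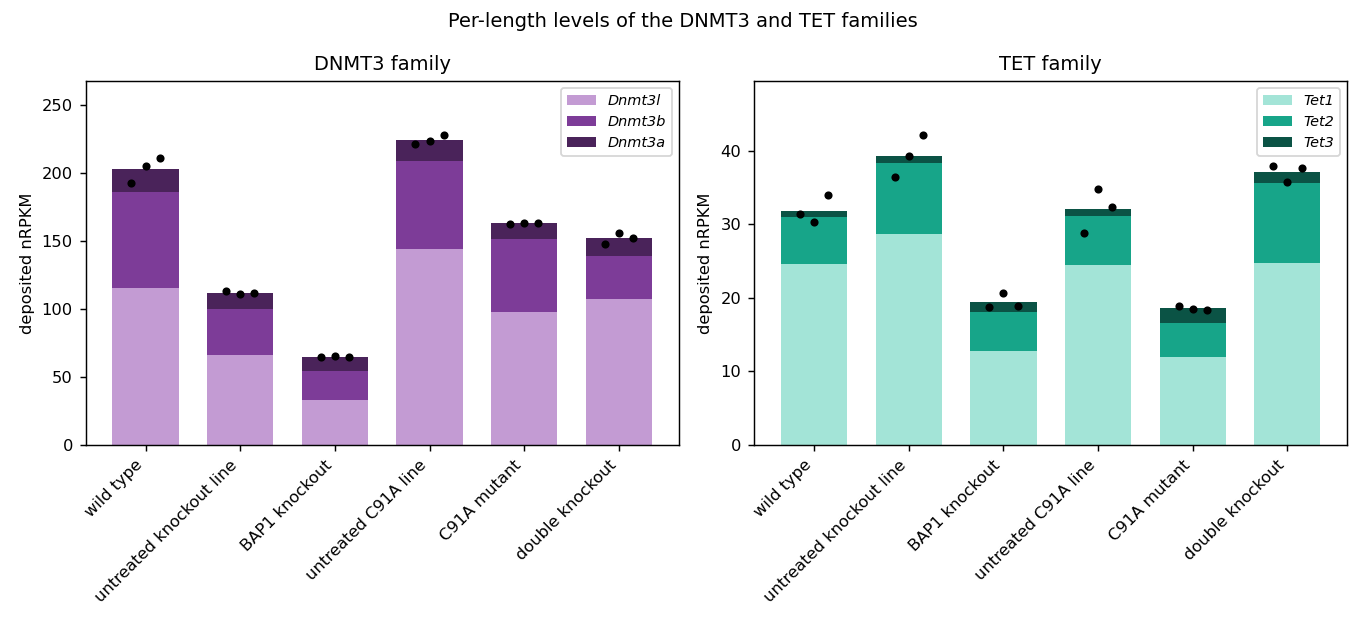
Stacked mean levels in deposited nRPKM (per transcript length, linear axes from 0) of the DNMT3 family (left) and TET family (right) in 6 groups; black points are the family sums of the 3 libraries. The DNMT3 sum runs from 65.0 in the BAP1 knockout to 225 in the untreated C91A line, and the TET sum is lowest in the C91A mutant at 18.6 and the BAP1 knockout at 19.4.

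The knockout effect minus the C91A effect was tested for each gene. Each allele was in its own line, and the untreated lines differed, so line and allele cannot be told apart in this difference. Of the members 4 had a lower value in the knockout (Dnmt3b, Dnmt3l, Tet2 and Tet3) and 1 a higher value (Dnmt3a), beside 25.9% of all genes, 12.2% higher and 13.8% lower. Dnmt3l fell further in the knockout, with a difference of -0.49 ± 0.06 on the log2 scale (adjusted p = 6.57e-08), and Dnmt3b likewise at -0.35 ± 0.06 (adjusted p = 6.08e-05). Tet3 rose less in the knockout, at -0.64 ± 0.13 (adjusted p = 0.000188). Tet2 fell further, at -0.39 ± 0.11 (adjusted p = 0.00616), a call that was lost with all libraries thinned to equal depth (-0.28, adjusted p = 0.0762). Dnmt3a fell less in the knockout, at 0.21 ± 0.07 (adjusted p = 0.0221). That last call was lost without untreated knockout line library 1 or 2, BAP1 knockout library 1 or C91A mutant library 3 (0.19 each, adjusted p 0.0606 to 0.0679), under library totals alone (0.16) and with no filter on low counts (0.20). The differences for Tet1 (-0.14 ± 0.08, adjusted p = 0.182), Uhrf1 (0.13 ± 0.06, adjusted p = 0.13) and Dnmt1 (0.04 ± 0.06, adjusted p = 0.665) did not pass. For Tet1 it passed without untreated C91A line library 2 (-0.23, adjusted p = 0.0179), the library in which Tet1 was highest for that group. The 2 treated groups were also compared directly: the BAP1 knockout lay below the C91A mutant by -1.596 ± 0.05 for Dnmt3l, -1.29 ± 0.05 for Dnmt3b, -0.56 ± 0.09 for Tet3 and -0.23 ± 0.05 for Dnmt3a, and above it by 0.17 ± 0.05 for Uhrf1. These values include differences between the lines before the drug, so line and allele cannot be told apart in them. The untreated knockout and C91A lines held 185 and 398 CPM of Dnmt3l, 204 and 390 of Dnmt3b, and 132 and 180 of Dnmt3a. For Tet3 they held 13.9 and 13.0 CPM. In that comparison, with 4 members lower and 1 higher, 50.7% of all genes were called, 24.7% higher and 26% lower. Tet1 (0.09 ± 0.06, adjusted p = 0.217), Tet2 (0.16 ± 0.08, adjusted p = 0.0955) and Dnmt1 (0.03 ± 0.04, adjusted p = 0.576) did not pass there. The Tet2 value passed at equal depth (0.25) and without BAP1 knockout library 1 (0.26) or C91A mutant library 1 (0.23).

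In the RNF2-BAP1 double knockout, the members that fell in the BAP1 knockout stood higher than there. In the double knockout against the BAP1 knockout 5 members were higher (Dnmt3a, Dnmt3b, Dnmt3l, Tet1 and Tet2), Uhrf1 was lower, and Dnmt1 and Tet3 did not pass, where 63.2% of all genes passed, 32.6% higher and 30.6% lower. This comparison and the knockout effect share the BAP1 knockout libraries, so the values of the 2 comparisons are not independent. As the double knockout has no untreated line among these libraries, loss of RNF2 and differences between lines cannot be told apart here. Dnmt3l led, at 3.29 times the knockout level (log2 fold change 1.72 ± 0.05, adjusted p = 1.45e-29), with 93.5% of all genes having a lower value. Tet2 came to 2.08 times (1.05 ± 0.08, adjusted p = 1.08e-15) and Tet1 to 1.94 times (0.96 ± 0.06, adjusted p = 1.97e-18). Dnmt3b came to 1.46 times (0.55 ± 0.05) and Dnmt3a to 1.23 times (0.30 ± 0.05, or 0.50 under library totals alone). Tet3, raised in the knockout, was at 0.14 ± 0.09 (adjusted p = 0.166). Uhrf1 was at -0.19 ± 0.05 (adjusted p = 0.000336) and Dnmt1 at -0.09 ± 0.04 (adjusted p = 0.0621). Under library totals alone, where the median of all genes shifts to 0.24, Uhrf1 and Dnmt1 turned to 0.013 and 0.12 and Tet3 became a call at 0.35. Dnmt1 passed without BAP1 knockout library 2 or double knockout library 3 (-0.11 each).

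Set against wild type, which shares no library with the knockout effect, the double knockout did not stand at one level for all members. There 3 members were higher (Dnmt1, Tet2 and Tet3), 4 lower (Dnmt3a, Dnmt3b, Dnmt3l and Uhrf1) and Tet1 did not pass, where 53.3% of all genes passed, 26.2% higher and 27.1% lower. Tet1 differed by 0.00 ± 0.05 (adjusted p = 0.976). Dnmt3b was at 0.453 times the wild-type level (log2 fold change -1.14 ± 0.04, adjusted p = 4.42e-24), and only 2.05% of all genes had a lower value. Dnmt3a was at -0.46 ± 0.05, Tet3 at 0.84 ± 0.09, Tet2 at 0.75 ± 0.07 and Dnmt1 at 0.21 ± 0.04. For Dnmt3l the value was -0.11 ± 0.04 (adjusted p = 0.0177), and the call was lost without wild-type library 2 (-0.10) or 3 (-0.09), without double knockout library 1 (-0.10), with only these groups in the fit (-0.11) and under library totals alone (-0.02). Uhrf1 was at -0.15 ± 0.04 (adjusted p = 0.00498), and at -0.05 with no call under library totals alone.

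**Figure D3:**
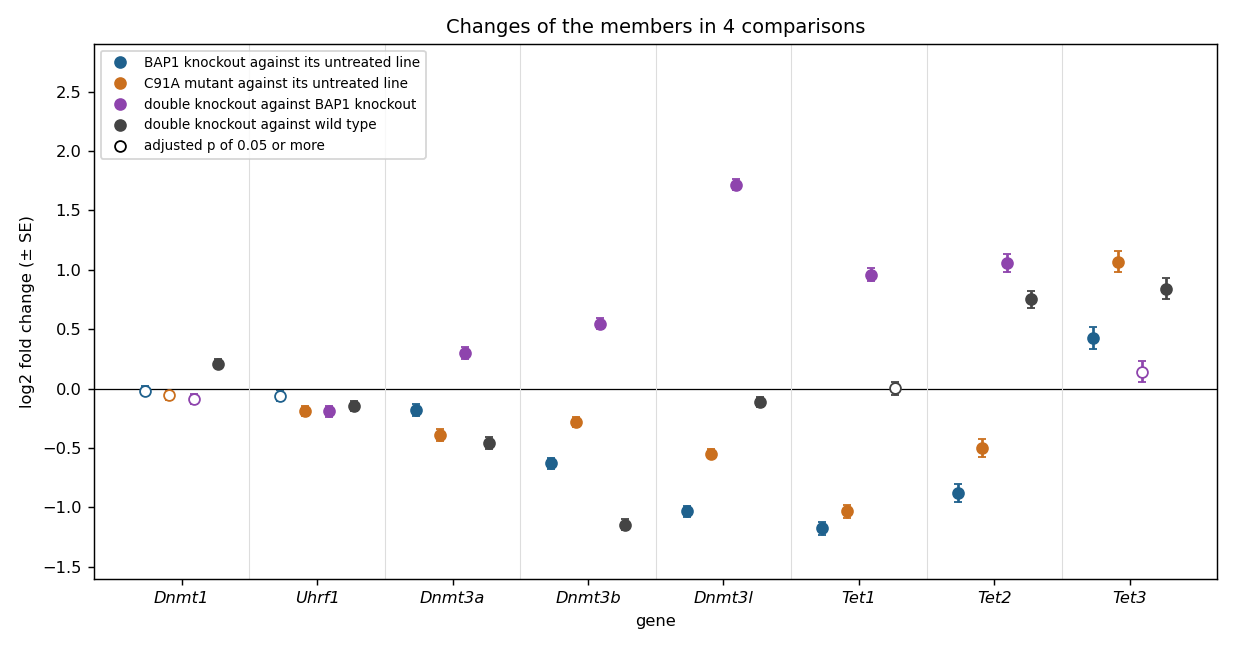
Log2 fold change of each member (points, linear axis) with SE (bars) in 4 comparisons, given by colour; open points have an adjusted p of 0.05 or more. Dnmt3l reaches 1.72 in the double knockout against the BAP1 knockout, and Tet3 lies above 0 in all 4 comparisons, open at 0.14 for the double knockout against the BAP1 knockout.

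The untreated lines were not wild type for these genes. The untreated knockout line against wild type had 4 members higher (Dnmt1, Tet1, Tet2 and Tet3) and 3 lower (Dnmt3a, Dnmt3b and Dnmt3l), with Uhrf1 not passing, where 39.3% of all genes passed, 18.5% higher and 20.8% lower. Dnmt3b was at -1.06 ± 0.04 on the log2 scale, Dnmt3l at -0.80 ± 0.04 and Dnmt3a at -0.58 ± 0.05. For Dnmt3b only 2.49% of all genes had a lower value. Tet2 was at 0.58 ± 0.07, Dnmt1 at 0.31 ± 0.04, Tet1 at 0.22 ± 0.05 and Tet3 at 0.27 ± 0.09. The Tet3 call was lost without wild-type library 2 (0.24) or untreated knockout line library 2 (0.25). Uhrf1, at 0.10 ± 0.04 (adjusted p = 0.0578), passed in 5 alternatives, among them without wild-type library 2 (0.14). In the untreated C91A line against wild type 2 members were higher, Dnmt1 at 0.32 ± 0.04 and Dnmt3l at 0.31 ± 0.04, and 2 lower, Dnmt3a at -0.14 ± 0.05 and Dnmt3b at -0.12 ± 0.04, where 27.6% of all genes passed, 13.4% higher and 14.2% lower. Both lower calls were lost without wild-type library 2 (-0.13 and -0.12) or 3 (-0.12 and -0.09) or untreated C91A line library 1 (-0.13 and -0.10), and that of Dnmt3a without untreated C91A line library 3 (-0.14). Library totals alone also ended both calls (-0.10 and -0.09), equal depth that of Dnmt3a (-0.13) and the fit of these groups alone that of Dnmt3b (-0.12). The 3 TET genes and Uhrf1 did not pass there, at -0.01 to 0.19.

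Genes that work with the members were read from 7 lists. Of all genes tested, 31.3% rose and 30.3% fell in the knockout, and 28.6% rose and 26.4% fell in the mutant. The counts below are to be read beside these shares, which several lists did not exceed. Of 10 readers of methylated DNA, 4 rose and 4 fell in the knockout and 4 rose and 1 fell in the mutant (median log2 fold changes 0.06 and 0.08). Uhrf2, the paralog of Uhrf1, rose by 1.005 ± 0.05 and 0.53 ± 0.05 on the log2 scale while Uhrf1 did not rise. Zfp57, a zinc finger protein that guards methylation at imprinted loci, changed by -1.33 ± 0.04 and -0.60 ± 0.04. Of 13 maintenance and replication partners 1 rose and 6 fell in the knockout and 1 rose and 7 fell in the mutant (medians -0.03 and -0.14), with small changes such as Setdb1, a histone methyltransferase, at -0.36 and -0.32. Of 16 guides and regulators of DNMT and TET, 4 rose and 8 fell in the knockout and 4 rose and 7 fell in the mutant (medians -0.09 and -0.05), among them Dppa3, which holds UHRF1 off chromatin, at -1.14 ± 0.12 and -0.53 ± 0.10, and Bend3 at -1.55 ± 0.07 and -0.85 ± 0.06. Of 17 tested genes of excision and repair 4 rose and 4 fell in the knockout and 2 rose and 6 fell in the mutant (medians 0.10 and -0.10). Gadd45g, a stress-response gene linked to demethylation, rose 2.83-fold in the knockout (log2 change 1.501 ± 0.06, adjusted p = 1.24e-23) and was at 0.04 in the mutant (adjusted p = 0.549). Apex1, an endonuclease of base excision repair, rose by 0.61 ± 0.04 in the knockout. Ung, a uracil glycosylase, was at -0.52 in the knockout and -0.63 in the mutant. Among 22 tested genes of methyl donor and 2-oxoglutarate supply 7 rose and 7 fell in the knockout, and 2 rose and 12 fell in the mutant (medians 0.02 and -0.13). Mat2a, which makes the methyl donor S-adenosylmethionine that the DNMT enzymes use, came to 0.259 times its line's level in the knockout (-1.95 ± 0.07). In the mutant Mat2a came to 0.445 times its line's level (-1.17 ± 0.06). The double knockout has no untreated line here, and its Mat2a value of -0.26 ± 0.06 is against wild type, a different reference. DNA replication genes, whose expression goes with that of Dnmt1 and Uhrf1 in cycling cells, had 5 of 24 higher and 9 lower in the knockout. In the mutant 0 were higher and 20 lower (medians -0.04 and -0.20). There Uhrf1 was called lower, while Dnmt1 did not pass. The count of 0 was from edgeR and was also 0 at an unadjusted p under 0.05 and with DESeq2. Under library totals alone the replication genes had 2 higher and 17 lower in the knockout.

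Germline genes with methylated promoters are a list chosen as known targets of DNMT silencing. The methylation of their promoters was not analysed here. Some were expressed in wild type, such as Piwil2 at 48.3 CPM and Mov10l1 at 13.9. Most genes of the list were lower in both treated lines, where the DNMT3 genes also fell. Most were higher in the double knockout than in the BAP1 knockout. The 2 sets did not move together in every comparison. Of 24 tested, 2 rose and 18 fell in the knockout (median log2 fold change -0.82) and 1 rose and 14 fell in the mutant (median -0.44). Of all genes 31.3% rose and 30.3% fell in the knockout, and 28.6% rose and 26.4% fell in the mutant. In the double knockout against the BAP1 knockout 22 rose and 0 fell by edgeR (median 2.50, against 0.03 for all genes), with 0 lower by DESeq2 and 1 lower at an unadjusted p under 0.05, and against wild type 22 rose and 1 fell (median 1.99). Of all genes 32.6% were higher and 30.6% lower against the BAP1 knockout, and 26.2% higher and 27.1% lower against wild type. Piwil2, which binds germline small RNAs, went from 57.6 CPM in the untreated knockout line to 17.9 in the knockout, and stood at 97.8 in the double knockout and 48.3 in wild type. Mov10l1, an RNA helicase of the same pathway, went from 19.8 to 7.25 CPM, and stood at 54.1 and 13.9. In the double knockout Dnmt3b and Dnmt3a were below wild type while Dnmt1 was above it, as given above. In the untreated knockout line against wild type 14 germline genes were higher and 2 lower (median 0.38), beside 18.5% and 20.8% of all genes. There Dnmt3a, Dnmt3b and Dnmt3l were lower. In the untreated C91A line against wild type 3 germline genes were higher and 9 lower (median -0.20), beside 13.4% and 14.2% of all genes. The lists stand beside the members here as counts, and no link between them was tested.

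**Figure D4:**
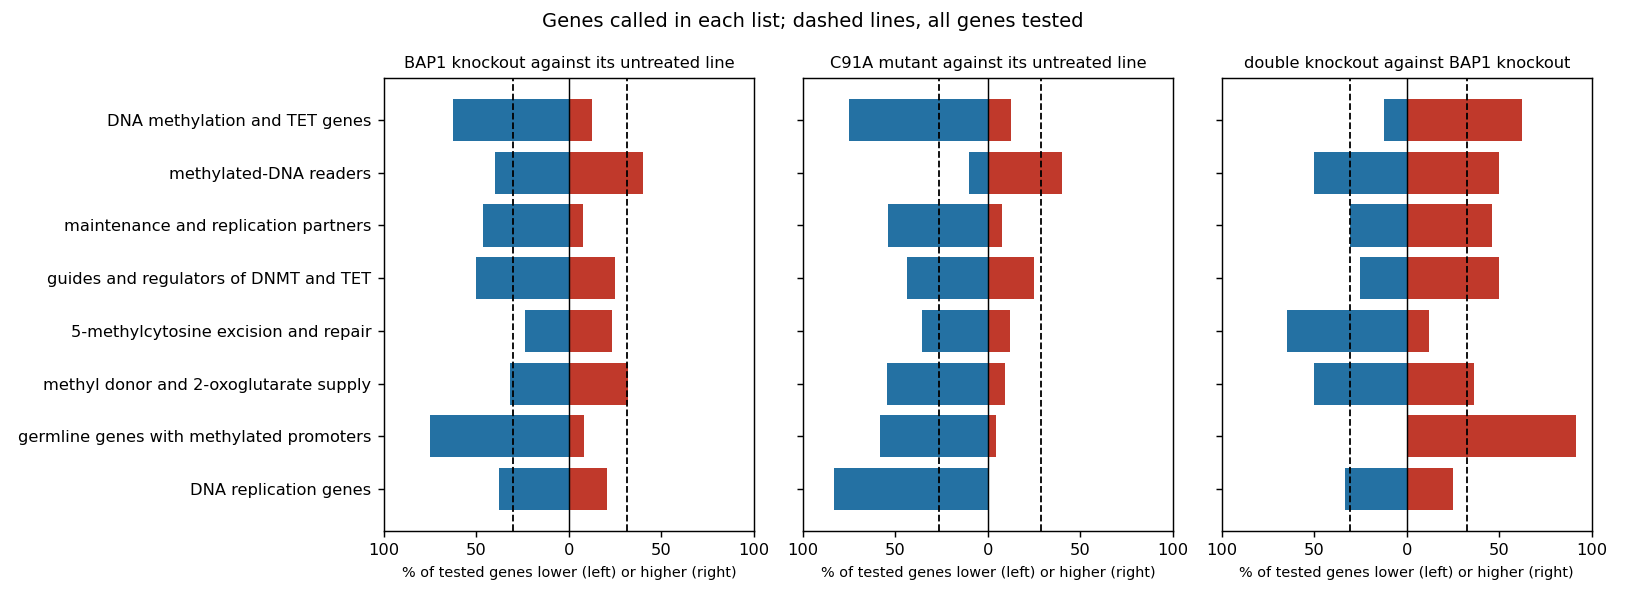
Share of tested genes of each list (the 8 members on top, then 7 pathway lists) called lower (blue, left) or higher (red, right), in percent, in 3 comparisons; dashed lines mark the same shares for all 16875 genes. Germline genes have 18 of 24 lower in the BAP1 knockout and 22 of 24 higher in the double knockout against it, and 6 of 8 members are lower in the C91A mutant.

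The genes whose log2 CPM followed each member most closely over the 18 libraries were drawn from the 11562 genes whose mean log2 CPM was 2 or more. The 18 libraries form 6 groups and share depth and scaling, so Pearson's r describes these libraries only. Tet1 ran closest to Fcho1, Fgf4 and Zfp217 (r = 0.98 each), of which Fgf4 is a growth factor gene of pluripotent cells. Dnmt3b ran closest to Gldc (0.98), Tnnt1 (0.97) and Slc38a4 (0.97), and Dnmt3l to Tbc1d9, Mt2 and Dlc1 (0.97 each). Tet3 ran closest to Tmem127 (0.97), Adcy1 (0.96) and Rusc2 (0.96), Tet2 to H2-M5 (0.97), Cmklr1 and A2m (0.96 each), and Dnmt3a to Slc25a37, Cyb5b and Plcg2 (0.95 each). Uhrf1 ran closest to Lsm2 (0.94), the kinase gene Pkmyt1 and the replicative polymerase gene Pold1 (0.92 each). Dnmt1, which varied little, ran closest to Erdr1 (0.91), Pgs1 (0.90) and Rptor (0.89). No member was among the 3 closest of another member.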

How the data were processed

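Polyadenylated RNA of 18 mouse embryonic stem cell libraries was extracted with RNeasy kits, made into TruSeq version 2 libraries and sequenced as single 50-base reads, per the labels' protocols. The submitters' processing notes name the aligner GSNAP, without a version, and the build GRCm38. The deposited files give, per the file headers, a count of uniquely aligned reads per gene and an RPKM adjusted by size factors, both made by the authors. The sources used here do not say whether counting used strand. Groups follow the labels; replicate numbers only name libraries.

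The deposited counts were tested with edgeR 4.0.16 (limma 3.58.1, R 4.3.3): filterByExpr, TMM, 1 mean per group, all 18 libraries, quasi-likelihood test, two-sided, Benjamini-Hochberg over 16875 genes, adjusted p under 0.05. Replicates varied little (coefficient of variation 4.47%), so small changes pass. Replicate libraries differed by more than sampling noise (chi-square per degree of freedom 1.77 to 5.78). The SE of a log2 fold change is its size over the root of F. The code was tested on simulated data. RPKM served only to compare genes. DESeq2 1.42.0, other scalings, no filter, equal depth, fewer groups and leaving out each library were alternatives.

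Members and lists were chosen with earlier results of these data known. Named beside the members are Bap1, Rnf2, up to 4 called genes per list with the largest change in each line (a few of them described), and the 3 genes nearest each member by Pearson's r. Marker lists for primitive endoderm, trophoblast and formative epiblast are given under the other observations. RefSeq GRCm38.p6 gave names, loci and sequences.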

Additional observations from a re-analysis of the deposited data

Results flagged for a closer look

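For 5 members the change in the BAP1 knockout differed from the change in the C91A mutant, by edgeR's test of that difference itself with Benjamini-Hochberg adjustment. The knockout effect minus the C91A effect, on the log2 scale, was -0.64 for Tet3 (adjusted p = 0.000188), -0.49 for Dnmt3l (6.57e-08), -0.39 for Tet2 (0.00616), -0.35 for Dnmt3b (6.08e-05) and 0.21 for Dnmt3a (0.0221). Each allele was in its own line, so line and allele cannot be told apart in these differences. The alternatives that ended the call of Dnmt3a or Tet2 stand with those results above.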

How the results depend on the processing

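Of 880 alternative values for 64 member results, 836 kept direction and call, 26 lost the call, 16 gained it and 2 turned sign, in 16 results in all. Library totals alone, without a correction for composition, turned Dnmt1 (0.12) and Uhrf1 (0.013) in the double knockout against the BAP1 knockout. That scaling moved the median of all genes to -0.16 in the knockout, -0.11 in the mutant, 0.24 in the double knockout against the BAP1 knockout and 0.10 against wild type. With it the share of calls that were higher went from 50.8% to 34.1%, 52% to 37.8%, 51.5% to 71.7% and 49.2% to 63.5% in these comparisons, from 46.9% to 32.9% for the difference of the 2 effects, and from 47.1% to 57.7% and 48.5% to 60.1% for the untreated knockout and C91A lines against wild type.

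Library totals alone also took the members lower from 5 to 7 in the knockout and from 6 to 7 in the mutant, and the members higher from 5 to 7 in the double knockout against the BAP1 knockout and from 4 to 5 in the untreated knockout line against wild type. The counts of called members that moved by more than 1.5 times were these. The 1 member higher in the difference of effects became 0 under library totals alone and with no filter, and 0 to 1 when 1 library was left out. The 1 member lower in the double knockout against the BAP1 knockout became 0 under library totals alone and 1 to 2 with 1 library left out. The 4 lower against wild type became 2 under library totals alone. In the untreated C91A line against wild type the 2 lower became 0 under library totals alone, 1 at equal depth, 1 with only these groups in the fit, and 0 to 2 with 1 library left out. The 1 member higher in the BAP1 knockout than in the C91A mutant became 2 at equal depth and 1 to 2 with 1 library left out. The cause was not tested.

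No paired analysis was possible because the labels carry no replicate numbers. The shallowest library, with 8106613 counts, held 128 counts of Tet3, so small changes of Tet3 were the least precise of the members.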

Other observations

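Further marker lists were measured, given as summed CPM per library. Primitive endoderm markers (8 of 10 tested) came to 38.9 to 41.5 CPM in wild type, 15.02 to 17.4 in the untreated knockout line, 22.4 to 24.8 in the BAP1 knockout, 23.8 to 24.9 in the untreated C91A line, 35.7 to 38.2 in the C91A mutant and 57.5 to 62.6 in the double knockout. Trophoblast markers (8 of 8 tested) came to 204 to 212, 143 to 153, 119 to 126, 288 to 298, 287 to 311 and 154 to 176 CPM in the same order. Formative epiblast markers (6 of 7 tested), of the stage at which Dnmt3a and Dnmt3b are known to rise, came to 80.9 to 82.3, 87.7 to 95.2, 51.8 to 52.5, 88.7 to 92.2, 58.2 to 67.6 and 101 to 107 CPM. Of the formative epiblast markers, 4 fell and 1 rose in the BAP1 knockout, and 2 fell and 1 rose in the C91A mutant. Primitive endoderm markers had 0 lower and 5 higher in the knockout, and 0 lower and 3 higher in the mutant. Trophoblast markers had 4 lower and 1 higher in the knockout, and 4 lower and 2 higher in the mutant. Of all genes, 30.3% fell and 31.3% rose in the knockout, and 26.4% fell and 28.6% rose in the mutant. Afp was at 0 in wild type and reached no more than 0.21 CPM in any library. Hnf4a and Elf5 were at 0 in the BAP1 knockout, and reached no more than 0.36 and 1.40 CPM in any library.

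Promoter windows of the germline list, 29 windows of 24 genes, held a median of 20 CpG sites against 7 in all windows. The E-box CACGTG was in 16 of them (55.2%, against 7.15% of all windows) and TTCCCGC in 8 (27.6%, against 4.6%), on either strand. This is a match of letters in a list chosen as known methylation targets, and no factor's binding was measured.

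Aire, which overlaps the first start of Dnmt3l, held 14.5, 16.7 and 15.2 CPM in the untreated knockout line, 3.96, 4.23 and 3.73 in the BAP1 knockout, and 13.7, 16.7 and 15.6 in the double knockout. In the C91A line it held 23.5, 22.7 and 23.1 CPM untreated and 6.95, 6.54 and 7.12 as mutant. It was named after its values were seen, because of the overlap.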
